A study of Mus musculus with 16 samples.

Results

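Named pseudogenes were taken as the gene symbols that end in -ps, with or without a number, and a mean of at least 0.5 FPKM (fragments counted relative to transcript length and library size) over 16 cultures was required after the isoforms of a symbol were added up. Of 1534 such symbols in the table, 826 were listed at 0 FPKM in all cultures and 235 reached the threshold, among 16313 symbols of any kind that did. The members were thus selected on their mean FPKM over all cultures, and that level is given only as a description. Just inside the threshold were Tdg-ps at 0.503 FPKM, Rpl19-ps9 at 0.508 and Tpt1-ps5 at 0.520, and just outside it Rps6-ps1 at 0.497, Gpx2-ps1 at 0.496 and Obox4-ps2 at 0.492.

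The RNA came from primary cortical neurons of wild-type mouse embryos at E15, in 4 groups of 4 cultures. Cultures received vehicle (VEH, called untreated in the labels) or 10 μM tianeptine (TIA, an antidepressant) on day 8 in vitro. After 24 h they were exposed to 3 h of oxygen-glucose deprivation (OGD, a cell-culture model of ischemia) or to sham handling (CONTROL), and RNA was taken at 6 h of reoxygenation. The groups are CONTROL-VEH (cultures 1 to 4), CONTROL-TIA (5 to 8), OGD-VEH (9 to 12) and OGD-TIA (13 to 16). All the values come from bulk RNA of whole cultures, in which fewer cells of a type and less RNA per cell cannot be told apart. The study's methods call the 4 cultures of a group biological replicates.

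A processed pseudogene is a copy of a spliced mRNA that was reverse transcribed and inserted elsewhere in the genome, usually without the promoter of the gene it came from. Abundant housekeeping mRNAs, those of ribosomal proteins above all, have left many such copies. Because a copy and its parent gene can be identical over the length of a short read, a pseudogene level in RNA-seq depends on how reads that match both are divided. Each pseudogene was therefore set beside its parent, the gene whose symbol precedes -ps.

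The label "processed" holds for 204 of the 235 members by their GENCODE biotype, 10 of them transcribed processed pseudogenes. Another 17 were unprocessed copies, 9 of these transcribed. The remaining 14 were annotated as protein coding (7), transcribed unitary pseudogenes (3), polymorphic pseudogenes (2), a lincRNA (1) and a processed transcript (1). The members were grouped by the first letters of their symbols, which match the role of the parent only roughly. By this rule, 98 were copies of ribosomal protein genes, 9 of translation factor or RNA binding genes and 6 of chromatin genes. Another 6 were copies of protein folding and turnover genes, 5 of energy metabolism genes and 4 of cytoskeleton and transport genes. The remaining members were 3 copies of phosphatase and kinase regulators and 104 with other parents. A parent was found for 208 members, 200 through the symbol itself and 8 through a RefSeq synonym, and 204 members had a parent that aligned and also reached 0.5 FPKM. These 204 pairs had 137 different parents, and Rpl31 alone had 13 member copies.

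The sequences show how little separates many of the pairs. Each line gives 100 bases of transcript in 5′ to 3′ direction from GENCODE M21 (GRCm38), in lower case, with capitals at the positions where the pseudogene and the coding sequence of its parent differ. The first is shared letter for letter by Rpl31-ps8 (chr15:90764557-90764656, minus strand) and Rpl31, and stands for the 21 members whose every 50-base stretch is also found in the parent.
Rpl31-ps8 and Rpl31: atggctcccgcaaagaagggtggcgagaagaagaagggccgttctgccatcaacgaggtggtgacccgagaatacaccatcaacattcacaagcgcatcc
The next pair is Rps26-ps1 (chr8:107439463-107439562, minus strand), the member with the highest mean, and its parent.
Rps26-ps1: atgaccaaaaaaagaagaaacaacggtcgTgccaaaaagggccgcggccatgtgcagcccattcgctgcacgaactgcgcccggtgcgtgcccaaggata
Rps26: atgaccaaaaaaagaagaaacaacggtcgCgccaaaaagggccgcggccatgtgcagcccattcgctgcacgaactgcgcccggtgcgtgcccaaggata
Fabp3-ps1 (chr10:86732055-86732154, minus strand) and Ftl1-ps1 (chr13:74407008-74407107, plus strand) are members called after OGD below, each shown above its parent.
Fabp3-ps1: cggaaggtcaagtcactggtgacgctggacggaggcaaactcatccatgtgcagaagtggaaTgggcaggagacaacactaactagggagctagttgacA
Fabp3: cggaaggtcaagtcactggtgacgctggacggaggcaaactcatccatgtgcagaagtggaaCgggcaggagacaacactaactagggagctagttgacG
Ftl1-ps1: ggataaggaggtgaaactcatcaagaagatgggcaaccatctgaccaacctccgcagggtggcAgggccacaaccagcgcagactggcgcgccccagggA
Ftl1: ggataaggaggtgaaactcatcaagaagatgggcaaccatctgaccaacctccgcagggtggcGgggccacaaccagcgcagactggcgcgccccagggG
Ppp1r2-ps2 (chr6:90906150-90906249, plus strand) and Ppp1r2-ps4 (chr9:66805510-66805609, minus strand) are copies of the same parent and share 1 of the differences from it shown here.
Ppp1r2-ps2: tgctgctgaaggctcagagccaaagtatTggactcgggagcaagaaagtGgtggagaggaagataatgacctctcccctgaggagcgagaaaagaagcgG
Ppp1r2-ps4: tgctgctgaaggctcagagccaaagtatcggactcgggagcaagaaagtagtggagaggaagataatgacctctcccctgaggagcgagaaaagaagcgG
Ppp1r2: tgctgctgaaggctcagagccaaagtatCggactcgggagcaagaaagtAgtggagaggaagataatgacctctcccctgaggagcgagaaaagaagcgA
Atp6v0c-ps1 (chr7:4412464-4412563, plus strand) is given as a copy with more differences, 5 in these 100 bases.
Atp6v0c-ps1: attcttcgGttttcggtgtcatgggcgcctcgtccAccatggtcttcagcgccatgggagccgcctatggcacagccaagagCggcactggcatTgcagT
Atp6v0c: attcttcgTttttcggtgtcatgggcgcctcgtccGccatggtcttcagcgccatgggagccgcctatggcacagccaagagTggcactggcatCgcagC

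Over all pairs, the aligned part of a pseudogene had a median identity of 98.8% with its parent, 90 of 204 were at least 99% identical and 24 were 100% identical. The reads were 50 bases long, so each member was cut into all of its 50-base stretches and these were looked up, on the same strand, in every other transcript of the table. A median of 36.0% of a member's stretches were its own. For 30 members no stretch was their own, for 91 more than 50% were, and for 9 all of them were. The 48 members with a mean of at least 100 FPKM had a median of 6.40% own stretches, and the 117 members under 5 FPKM a median of 52.8%.

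A level in FPKM also depended on transcript length in a way that has a step at 350 bases. In genes with a single isoform, the value of 1 read, read from the most common small value, was 0.102 FPKM for transcripts of 325 to 349 bases and 0.768 FPKM for those of 350 to 359 bases, and it then declined to 0.463 at 400 to 419 bases and 0.0504 at 1000 to 1099 bases. Of the members, 13 were shorter than 350 bases and 63 had from 350 to under 450 bases. Rps26-ps1, at 351 bases and 2263 FPKM, stood just above the step and had about 3019 reads on average, fewer than Tpt1-ps3, a copy of the gene of translationally controlled tumor protein, which had about 6659 at 519 bases and 1364 FPKM. Groupings of members by mean FPKM therefore partly follow transcript length, and levels are compared here between cultures.

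**Figure D1:**
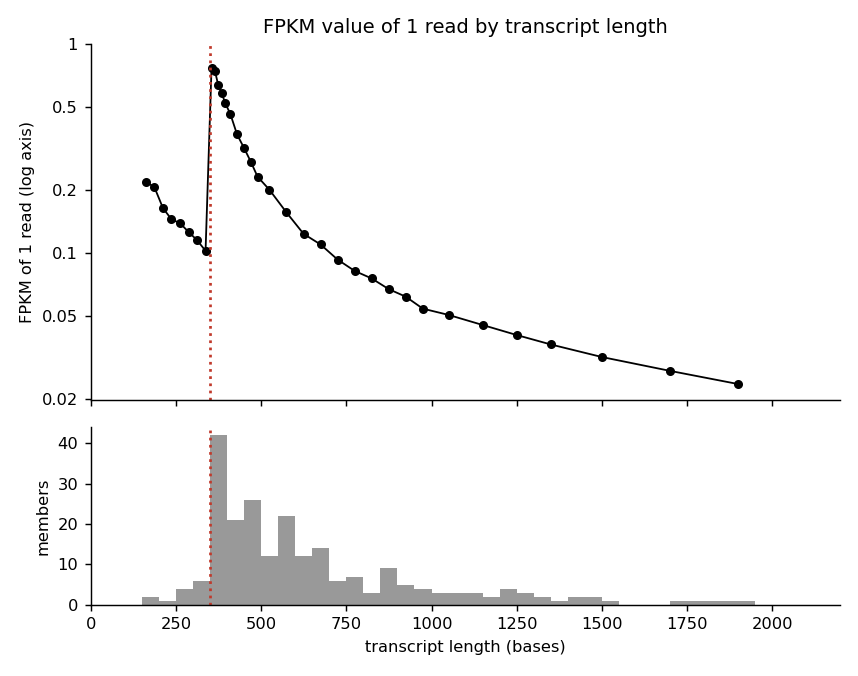
Upper panel, the FPKM value of 1 read (log axis) in genes with a single isoform against transcript length in bases. Lower panel, the number of members in length bins of 50 bases. The dotted line marks 350 bases, where the value of 1 read rises from 0.102 to 0.768 FPKM and many members begin.

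Dividing FPKM by the value of 1 read at the length of each transcript gave approximate reads. Their sum over all genes exceeds the number of aligned reads the labels state, so they serve as an order of depth only, and fractions of a read occur because the authors' tool, eXpress, divides shared reads by probability. The members averaged from 0.970 to 7558 approximate reads with a median of 50.1, and 57 of 235 averaged under 10. Together they held between 0.361 and 0.544% of the approximate reads of a culture.

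Before the comparisons, the cell type markers and the libraries that stood apart are given. The 9 neuron markers added up to between 2775 and 3282 FPKM in CONTROL-VEH and between 1167 and 2503 FPKM in OGD-VEH, where culture 9 was the highest. The 8 oligodendrocyte lineage markers ran the other way, from 171 to 206 FPKM in CONTROL-VEH and from 233 to 637 FPKM in OGD-VEH, and astrocyte markers were at 753 to 900 FPKM in CONTROL-VEH cultures 1 to 3, at 1614 FPKM in culture 4 and at 1011 to 2532 FPKM in OGD-VEH. OGD-VEH culture 12 had both the lowest neuron sum, 1167 FPKM, and the highest astrocyte sum, 2532 FPKM. Microglial markers added up to 0.524 to 3.13 FPKM over all cultures, and endothelial and mural markers to 1.61 to 6.52 FPKM. Fibroblast markers were low but apart, from 10.75 to 16.75 FPKM in CONTROL-VEH and from 2.79 to 10.2 FPKM in OGD-VEH. Among the OGD-TIA cultures, culture 16 was apart from the others, with neuron markers of 1641 FPKM against 2698 to 2808 FPKM. The part of this shift in any change of a pseudogene was not tested.

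After OGD without TIA, 8 of the 235 named pseudogenes were called, 4 higher and 4 lower. A gene was called when its Benjamini-Hochberg adjusted p (padj) from limma did not exceed 0.05 over all 16313 genes and its fold change on log2(FPKM + 0.1), a scale that understates the change of low genes, reached 1 or -1. Over all genes 3.96% were called, 2.32% higher and 1.64% lower, and the share among the members, 3.40%, was near that background. The higher ones were Cd63-ps, Ftl1-ps1, Txn-ps1 and Cbx3-ps8, and the lower ones Fabp3-ps1, Ppp1r2-ps2, Atp6v0c-ps1 and Rpl12-ps1. Of the 8, 5 averaged under 15 approximate reads. The calls were sensitive to single cultures: leaving out any of cultures 1, 2, 3, 4, 10, 11 or 12 left 0 of the 235 called, and leaving out culture 9 gave 17. All genes shifted alike, with 1 to 70 of 16313 called without 1 of the former and 2172 (13.3%) without culture 9, where the 17 members are 7.23%.

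Cd63-ps, a transcribed processed copy of the tetraspanin gene Cd63 on chromosome 18, was the called member with the smallest adjusted p. It stood at 16.7, 7.44, 12.6 and 9.82 FPKM in CONTROL-VEH and at 27.7, 45.4, 37.6 and 58.2 FPKM in OGD-VEH, the lowest of these in culture 9. All the OGD-VEH cultures were above all the control cultures, at a log2 fold change of 1.86 ± 0.30 (SE, n = 4 per group, limma padj = 0.0324). Its mean was about 256 approximate reads, and 53.2% of its 50-base stretches were its own.

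Cd63 itself, which encodes a tetraspanin of late endosomes and lysosomes, ranged from 124.7 to 158.3 FPKM in CONTROL-VEH and from 162 to 451 FPKM in OGD-VEH, and it rose by 1.09 ± 0.28 (limma padj = 0.0491). The log2 ratio of Cd63-ps to Cd63 was -3.63 ± 0.49 (SD, n = 4) in CONTROL-VEH and -2.86 ± 0.24 in OGD-VEH, higher by 0.77 with an exact permutation p of 0.0571 (two-sided, 70 assignments, unadjusted, 1 of 204 pairs). The copy lies on the same strand within Hsd17b4, outside its annotated exons, so that RNA from that intron and RNA of the copy cannot be told apart. Hsd17b4, a peroxisomal enzyme gene, averaged 80.0 ± 15.0 FPKM (SD, n = 4) in the CONTROL-VEH cultures and 124 ± 21.5 FPKM in those of OGD-VEH, which is 0.63 on the log2 scale (limma padj = 0.0590).

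Fabp3-ps1 was the member called lower with the most reads, about 355 on average. Its parent encodes a fatty acid binding protein of heart and brain. The copy was at 234, 234, 219 and 170 FPKM in CONTROL-VEH and at 127, 94.1, 139 and 55.1 FPKM in OGD-VEH, with no overlap. It fell by 1.12 on the log2 scale (SE 0.28, limma padj = 0.0476), and 36.0% of its stretches were its own.

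Fabp3 was at 64.7, 52.3, 65.2 and 61.5 FPKM in CONTROL-VEH and at 68.6, 42.9, 44.8 and 28.8 FPKM in OGD-VEH, where culture 9 lay above every control, and its log2 fold change of -0.46 did not pass (limma padj = 0.20). The copy held between 22.2 and 40.7% of the approximate reads of the pair. The log2 ratio of Fabp3-ps1 to Fabp3 was 1.81 ± 0.28 (SD, n = 4) in CONTROL-VEH and 1.15 ± 0.34 in OGD-VEH, a difference of -0.66 with an exact permutation p of 0.0571. With copy and parent added up, the log2 difference in approximate reads was -0.66 (exact permutation p = 0.0571).

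Ftl1-ps1, a copy of the ferritin light chain gene, is annotated as protein coding. It was at 27.2, 16.3, 23.1 and 16.7 FPKM in CONTROL-VEH and at 44.0, 46.7, 41.6 and 42.0 FPKM in OGD-VEH, and its log2 fold change was 1.09 ± 0.18 (limma padj = 0.0344). In CONTROL-TIA the copy already spread from 21.8 to 45.2 FPKM, so the OGD-VEH values were not above all cultures without OGD. Its parent Ftl1, which encodes a subunit of the iron storage protein ferritin, ranged from 2376 to 2518 FPKM in CONTROL-VEH and from 2956 to 5690 FPKM in OGD-VEH, a log2 fold change of 0.85 ± 0.17 (limma padj = 0.0371). The ratio of the copy to the parent differed by 0.25 (exact permutation p = 0.457), and the copy held between 1.02 and 2.92% of the reads of the pair.

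Ftl1-ps1 also shares sequence with Ftl2-ps, another member, which has 71.2% of its stretches in Ftl1-ps1. Ftl2-ps had approximate reads of 26.2, 589, 130 and 455 in CONTROL-VEH and of 43.5, 525, 594 and 1059 in OGD-VEH. Ftl1-ps1 was higher in CONTROL-VEH cultures 1 and 3, where Ftl2-ps was low, but in OGD-TIA culture 14 was the lowest of its group in both, and in OGD-VEH Ftl1-ps1 stayed at 700 to 785 reads. Added together, the 2 copies had 484 to 864 reads in CONTROL-VEH and 784 to 1765 reads in OGD-VEH, which overlap, and the log2 difference of 0.97 had an exact permutation p of 0.0571.

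Ppp1r2-ps2, a copy of a gene for an inhibitor of protein phosphatase 1, had the largest log2 fold change of the called members. It was at 1.33, 8.52, 0.516 and 0.782 FPKM in CONTROL-VEH and at 0.0310, 0.0680, 0.167 and 0.0130 FPKM in OGD-VEH, a log2 fold change of -3.33 ± 0.79 (limma padj = 0.0456). Only 23.6% of its stretches were its own, and 63.7% were shared with Ppp1r2-ps4. In CONTROL-VEH culture 2, Ppp1r2-ps2 had 70.9 approximate reads and Ppp1r2-ps4 had 0, while in CONTROL-VEH culture 1 they had 11.1 and 75.4.

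The reads of Ppp1r2-ps2 and Ppp1r2-ps4 added up to 86.5, 70.9, 105 and 105 in CONTROL-VEH in the order of the cultures, and to 62.5, 142, 123 and 146 in OGD-VEH. These sums overlap, and the sign of the difference is the opposite of that of Ppp1r2-ps2 alone, at 0.31 on the log2 scale (exact permutation p = 0.343). In OGD-TIA, culture 14 had 57.6 reads on Ppp1r2-ps2 and 74.7 on Ppp1r2-ps4 and culture 13 had 0.150 and 146. Ppp1r2 itself ranged from 32.6 to 37.8 FPKM in CONTROL-VEH and from 38.4 to 45.4 FPKM in OGD-VEH, a log2 fold change of 0.25 that did not pass (limma padj = 0.128).

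**Figure D2:**
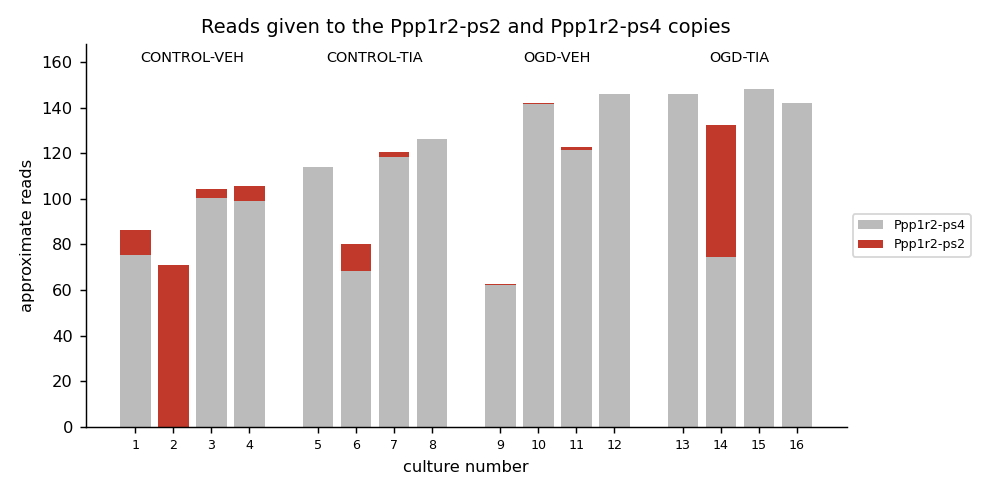
Approximate reads (vertical axis) given to Ppp1r2-ps2 (red) and Ppp1r2-ps4 (grey), stacked, in each of the 16 cultures in the order of the groups. In culture 2 all of the reads stand on Ppp1r2-ps2 and in culture 14 they are divided, while the sum stays between 62.5 and 148 in all cultures.

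The other 4 called members rested on a few reads each. Atp6v0c-ps1, a copy of a gene for a proton pump subunit, averaged 2.94 approximate reads. It was at 2.03, 1.82, 0.881 and 0.646 FPKM in CONTROL-VEH and at 0.391 FPKM in OGD-VEH culture 9, and it was listed at 0 FPKM in the other 3. In the fitted model its log2 fold change was -3.14 ± 0.64 (limma padj = 0.0371), but it was also listed at 0 in 2 of the 4 CONTROL-TIA cultures. Atp6v0c ranged from 2562 to 2888 FPKM in CONTROL-VEH and from 1555 to 2643 FPKM in OGD-VEH, a log2 fold change of -0.47 (limma padj = 0.0680).

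Rpl12-ps1, with 3.12 approximate reads, had the opposite sign to its parent. It was at 0.983, 2.44, 0.329 and 0.336 FPKM in CONTROL-VEH and between 0 and 0.0710 FPKM in OGD-VEH, a log2 fold change of -2.76 ± 0.63 (limma padj = 0.0433). Rpl12, a protein gene of the large ribosomal subunit, ranged from 28.02 to 61.7 FPKM in CONTROL-VEH and from 63.4 to 96.2 FPKM in OGD-VEH, a log2 fold change of 0.83 (limma padj = 0.0607). The copy had 46.3% own stretches and shared 32.7% with another copy, Gm15793.

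Cbx3-ps8, with 4.28 approximate reads, is a copy of a heterochromatin protein gene. It was listed at 0 FPKM in 2 CONTROL-VEH cultures and at 0.160 and 0.440 FPKM in the others, and it was at 0.653 to 1.50 FPKM in OGD-VEH, with a fitted log2 fold change of 2.52 ± 0.61 (limma padj = 0.0458). In CONTROL-TIA it reached 1.804 FPKM, above all OGD-VEH cultures. Its parent Cbx3 had a log2 fold change of 0.22 (limma padj = 0.547).

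Txn-ps1, a thioredoxin copy of 309 bases with 7.49 approximate reads, was at 0.252, 0.528, 0.359 and 0.131 FPKM in CONTROL-VEH and at 0.842, 1.41, 0.763 and 1.48 FPKM after OGD (log2 fold change 1.59 ± 0.40, limma padj = 0.0476). It had 90.4% own stretches. CONTROL-TIA ran from 0.124 to 2.91 FPKM and so covered both groups. Txn1 had a log2 fold change of 0.49 (limma padj = 0.0508).

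**Figure D3:**
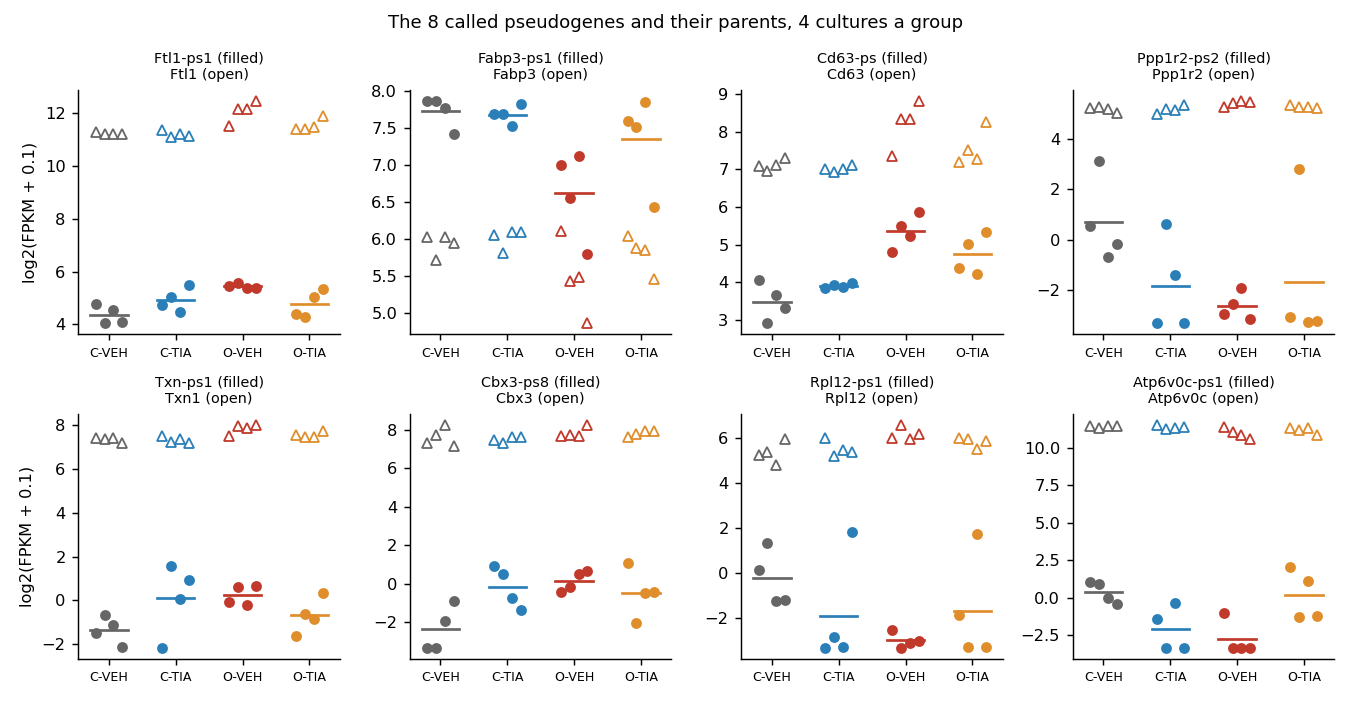
Levels of the 8 called pseudogenes (filled circles, lines at the group means) and of their parents (open triangles) as log2(FPKM + 0.1) on vertical axes that differ between panels, for 4 cultures each of CONTROL-VEH (C-VEH), CONTROL-TIA (C-TIA), OGD-VEH (O-VEH) and OGD-TIA (O-TIA). In the upper row, Fabp3-ps1 and Cd63-ps separate CONTROL-VEH from OGD-VEH and the CONTROL-TIA cultures lie with CONTROL-VEH, while the 4 copies in the lower row lie near the bottom of their axes and spread widely in CONTROL-TIA.

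When the fold threshold was set aside, the copies of ribosomal protein genes formed the largest group. By padj alone, 17 members were higher in OGD-VEH and 4 lower, the called members included, where 4.85% of all genes were higher and 3.38% lower. Ribosomal protein copies made up 11 of the 17, and 98 of all 235 members. Rps26-ps1 was at 2101, 1937, 1944 and 2041 FPKM in CONTROL-VEH and at 2536, 2739, 2714 and 2901 FPKM in OGD-VEH, a log2 fold change of 0.44 ± 0.06 (limma padj = 0.0276). Its parent Rps26 ranged from 269 to 337 and from 378 to 530 FPKM, where the log2 fold change was 0.56 ± 0.12 (limma padj = 0.0415). Both groups of values were apart in the copy as in the parent, and the ratio between them differed by -0.12 (exact permutation p = 0.229).

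Other members of this group by padj were Rpl34-ps1 at a log2 fold change of 0.59, Rps13-ps2 at 0.53 and Rpl31-ps8 at 0.52. Also in it, and named here after their values were seen, were Rpl10-ps1 at 0.53, Rpl23a-ps3 at 0.90 and Rps10-ps1 at 0.93. Their limma padj lay between 0.0289 and 0.0429. The parents, in the same order, had log2 fold changes of 0.52, 0.63, 0.25, 0.27, 0.30 and 0.52. Rpl34-ps1, Rps13-ps2, Rpl31-ps8 and Rpl10-ps1 had no stretch of their own. Rpl23a-ps3 had 11.7% and Rps10-ps1 49.8% own stretches. Of the 98 ribosomal protein copies, 78 had a positive log2 fold change, 36 were higher at an unadjusted limma p under 0.05 and 1 was lower, where 20.1% of all genes were higher and 14.9% lower by that measure. Their median log2 fold change was 0.43, against 0.10 over all genes. Of the 45 ribosomal protein parents, all 45 were positive and 38 were higher at that p, with a median of 0.46.

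The other members among the 10 of highest mean are mostly ribosomal protein copies too. Rps23-ps1 (log2 fold change 0.31), Tpt1-ps3 (0.38), Rpl28-ps1 (0.50), Rps16-ps2 (0.24), Rps24-ps3 (0.25) and Rps15a-ps5 (0.26) did not pass (limma padj between 0.0527 and 0.223). Rps23-ps1, Tpt1-ps3, Rpl28-ps1 and Rps16-ps2, like Rpl31-ps8 and Rps13-ps2, have no stretch of their own and lie wholly within the parent's sequence, so no 50-base read of theirs differs from it. Rps16-ps2 was given a median of 64.0% of the reads of its pair, Rps23-ps1 69.1%, Rpl28-ps1 71.7%, Rps13-ps2 69.3%, Rpl31-ps8 57.5% and Tpt1-ps3 34.6%.

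The other groups by parent were small. Among the 9 translation factor or RNA binding copies, 6 were positive and 1 was higher at an unadjusted limma p under 0.05, and among the 6 chromatin copies, 3 were. All 4 cytoskeleton and transport copies were negative, with a median of -0.46 and 2 lower at that p. Of the 5 energy metabolism copies, 2 were lower and none higher. None of the 6 protein folding and turnover copies and, apart from Ppp1r2-ps2, none of the 3 phosphatase and kinase regulator copies passed it. Of the 104 members with other parents, 17 were higher and 8 lower.

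Over all 235 members, the median log2 fold change was 0.31, against 0.10 over all genes, and 170 were positive. At an unadjusted limma p under 0.05, 57 were higher and 14 lower (24.3 and 5.96%), beside 20.1 and 14.9% of all genes. With median-ratio scaling, the median was 0.24 (0.020 over all genes), with 47 higher and 14 lower at that p. The cultures of the 2 groups did not overlap in 33 members that were higher and 8 that were lower, which is 14.04 and 3.40% of them, beside 12.7 and 10.0% of all genes. Their 141 parents had a median of 0.33, and the copy and the parent had the same sign in 151 of 204 pairs, with reads that may be shared between them. Since a member could reach the mean of 0.5 FPKM through 1 high group, these counts describe the members that passed and are no support for a direction.

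**Figure D4:**
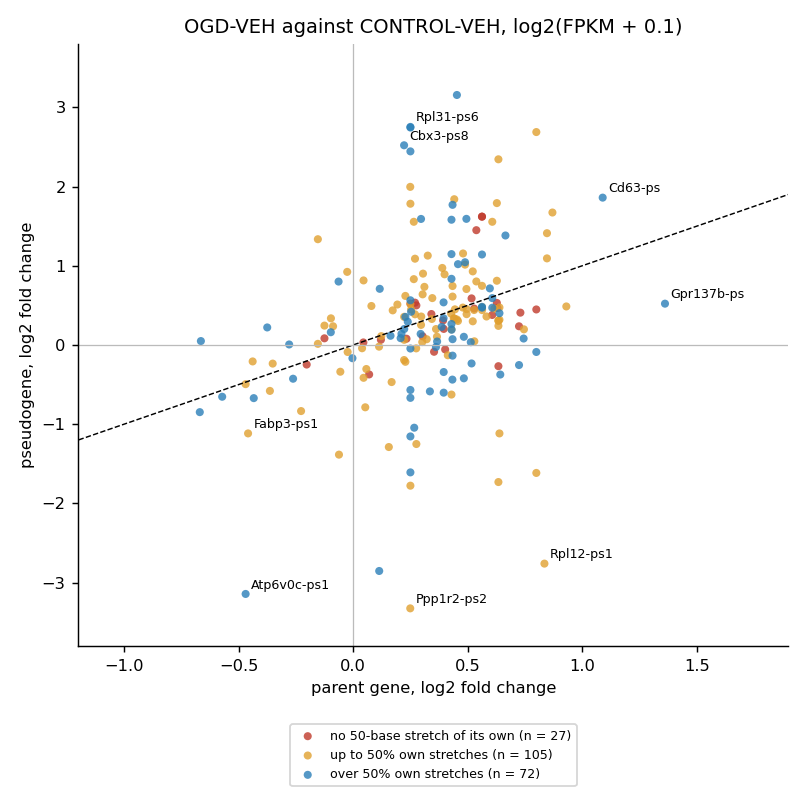
The log2 fold change of each pseudogene (vertical axis) against that of its parent (horizontal axis) in OGD-VEH versus CONTROL-VEH for 204 pairs, on log2(FPKM + 0.1), coloured by the share of 50-base stretches that are the pseudogene's own. The dashed line marks equal change. Pairs with no own stretch lie closer to it (median distance 0.224) than those with over 50% own stretches (0.566), which also have fewer reads.

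The distance of a pseudogene from its parent went with its own sequence and with its depth at once. For the 27 pairs in which the copy had no stretch of its own, the median size of the difference in log2 ratio between OGD-VEH and CONTROL-VEH was 0.224. It was 0.326 for the 105 pairs with up to 50% own stretches and 0.566 for the 72 pairs with more. The median depths of the members in these classes were 692, 109 and 14.5 approximate reads, and the median SD between CONTROL-VEH cultures was 0.19, 0.44 and 0.80 on the log2 scale. The parents of the 3 classes had median SDs of 0.13, 0.14 and 0.12.

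The question whether a copy moved apart from its parent was put to each pair by its log2 ratio in each culture. In OGD-VEH versus CONTROL-VEH, the ratios of the 2 groups did not overlap in 3 pairs that were higher (1.47% of 204) and 10 that were lower (4.9%). No overlap gives the smallest p that 4 against 4 cultures allow, 0.0286 by the exact permutation test, and after Benjamini-Hochberg adjustment over the 204 pairs the smallest exact permutation p was 0.416. The pairs below are named after their values were seen, unless they were named above.

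Of the 13 pairs, 5 had few reads on the copy: Rpl12-ps1, Ppp1r2-ps2, Anapc15-ps, Atp6v0c-ps1 and, in the other direction, Rpl31-ps6, at differences of -3.60, -3.58, -2.97, -2.68 and 2.50 with 17.5 approximate reads or fewer. Anapc15-ps, a copy of an anaphase promoting complex subunit gene, was at 19.8, 8.42, 7.96 and 11.02 FPKM in CONTROL-VEH and at 6.44, 2.39 and 3.32 FPKM in OGD-VEH cultures 10 to 12, with 0 in culture 9. It missed the call (log2 fold change -2.85 ± 1.16, limma padj = 0.122).

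Another 5 of the 13 pairs had a copy identical to its parent over the aligned part and with no stretch of its own: Rps16-ps2 (-0.49), Rpl15-ps3 (-0.46), Rps6-ps4 (-0.32), Rpl10-ps1 (0.26) and Rpl31-ps8 (0.27). In these pairs the ratios of the groups did not overlap although every 50-base read of the copy matches the parent as well. For Rps16-ps2 the log2 ratio was 1.84 ± 0.10 in CONTROL-VEH and 1.35 ± 0.04 in OGD-VEH. The parent transcripts also have sequence that the copies lack.

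The last 3 pairs were Rpl9-ps7 (-0.32), Gpr137b-ps and Pisd-ps1. Gpr137b-ps, an unprocessed copy of a gene for a lysosomal membrane protein, had 575 approximate reads and 70.5% own stretches. It was at 17.3, 26.2, 22.6 and 29.7 FPKM in CONTROL-VEH and at 20.7, 39.5, 34.7 and 45.8 FPKM in OGD-VEH, where only culture 9 lay within the controls (log2 fold change 0.52, limma padj = 0.196). Gpr137b lay between 33.4 and 51.2 FPKM in CONTROL-VEH and between 85.3 and 169.7 FPKM in OGD-VEH, and it rose (log2 fold change 1.36, limma padj = 0.0344). The ratio was -0.87 ± 0.25 in CONTROL-VEH and -1.71 ± 0.34 in OGD-VEH.

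Pisd-ps1, also an unprocessed copy, comes from the gene of phosphatidylserine decarboxylase, a mitochondrial enzyme of phospholipid synthesis. With 869 approximate reads and 88.6% own stretches, it was one of the better resolved members. It was at 86.7, 112, 103 and 63.7 FPKM in CONTROL-VEH and at 62.7, 61.1, 69.7 and 44.7 FPKM in OGD-VEH, which overlap (log2 fold change -0.60, limma padj = 0.0829), while Pisd ranged from 20.3 to 26.8 and from 25.8 to 40.2 FPKM (log2 fold change 0.39, limma padj = 0.121). The log2 ratio was 1.88 ± 0.50 (SD, n = 4) in CONTROL-VEH and 0.89 ± 0.51 in OGD-VEH, a difference of -0.997.

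Members that are both distinct in sequence and deep are few. Over 50% own stretches and at least 50 approximate reads were reached by 23 of the 235. Of the 23, 1, Cd63-ps, was called (4.35%, beside 3.96% of all genes). At an unadjusted limma p under 0.05, 4 were higher and 4 lower (17.4% each, beside 20.1 and 14.9% of all genes). These shares are near the background. The median log2 fold change of the 23 was 0.19. Tmem181b-ps, an unprocessed copy named here after its values were seen, was at 44.7 to 50.7 FPKM in CONTROL-VEH and at 37.1, 31.6, 26.9 and 19.5 FPKM in OGD-VEH, with no overlap (log2 fold change -0.73 ± 0.19, limma padj = 0.0509). Tmem250-ps, annotated as a lincRNA, had a log2 fold change of 0.84 ± 0.26 (limma padj = 0.0664) and Tubb2a-ps2, a tubulin copy, -0.65 ± 0.22 (limma padj = 0.0788).

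Depth alone did not make a member steady. Of the 118 members with at least 50 approximate reads, 9 had an SD above 1 on the log2 scale between the 4 CONTROL-VEH cultures. All 9 were among the 95 with up to 50% own stretches and none among the 23 with more, whose highest SD was 0.75. Pabpc1l2a-ps and Pabpc1l2b-ps, which share 100% of the stretches of the first, are an example. Pabpc1l2a-ps had 190, 195, 164 and 0 approximate reads in CONTROL-VEH, while Pabpc1l2b-ps had 154, 178, 161 and 220.

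On log2 approximate reads, the SD was 3.76 for Pabpc1l2a-ps, 0.23 for Pabpc1l2b-ps and 0.34 for their sum, which was lowest in culture 4 at 220 reads. Ap3s1-ps1, a copy of an adaptor complex subunit gene, had 213, 151, 2.67 and 70.8 reads in CONTROL-VEH and Ap3s1-ps2 had 0.301, 36.6, 116 and 40.4, and the SD was 2.67 and 2.82 for the copies and 0.46 for their sum. For Ppp1r2-ps4 and Ppp1r2-ps2 it was 3.27 and 1.67, and 0.27 for the sum. For Ftl2-ps and Ftl1-ps1 it was 2.03 and 0.36, and 0.40 for the sum. Adding a steadier and deeper copy lowers the SD by itself, and of these 4 sums, those of the Ap3s1 and Ppp1r2 copies had a lower SD than either copy, while those of the Ftl and Pabpc1l2 copies did not. For Amd-ps4 it was 3.06, and 3.28 with Amd-ps3 added, both being at or near 0 in CONTROL-VEH culture 3. The other 4 were Rps12-ps4, Rpl27-ps3, Ywhaq-ps3 and Rpl38-ps2.

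**Figure D5:**
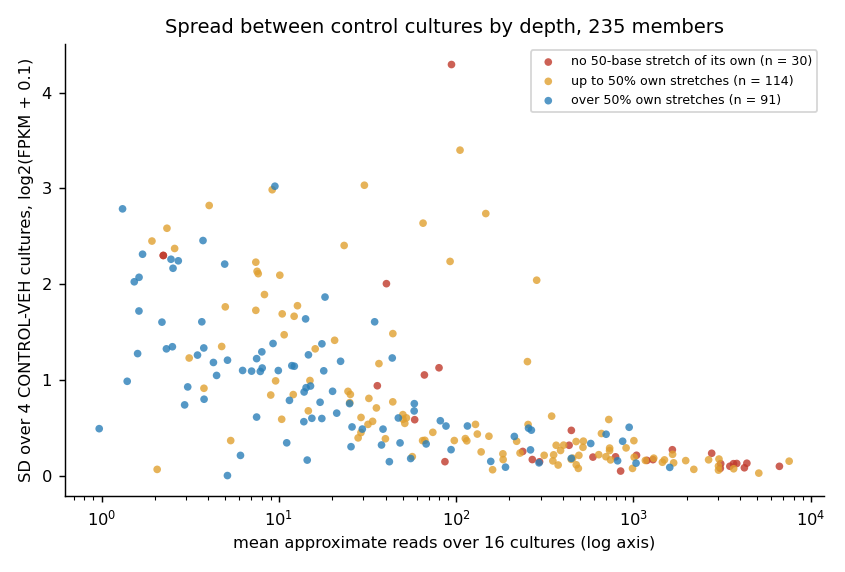
The SD of log2(FPKM + 0.1) over the 4 CONTROL-VEH cultures (vertical axis) against the mean approximate reads over 16 cultures (horizontal log axis) for the 235 members, coloured by the share of own 50-base stretches. The spread is lower in deeper members, and the 9 members with at least 50 reads and an SD above 1 all have up to 50% own stretches.

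Rps12-ps4 is 1 of these 9. It was at 0.856, 25.6, 20.1 and 17.5 FPKM in CONTROL-VEH and at 63.7, 51.9, 38.0 and 119 FPKM in OGD-VEH, without overlap (log2 fold change 2.69 ± 0.99, limma padj = 0.0971). Of its stretches, 87.6% are in Rps12-ps3, another member. Together, Rps12-ps3 and Rps12-ps4 had 341 to 629 reads in CONTROL-VEH and 486 to 891 reads in OGD-VEH, which overlap (log2 difference 0.62, exact permutation p = 0.0571).

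The last members with large changes and no overlap were Rpl31-ps6, Rpl31-ps20 and Rpsa-ps9. Rpl31-ps6 was at 0 to 1.13 FPKM in CONTROL-VEH and at 2.06 to 6.53 FPKM in OGD-VEH (log2 fold change 2.75 ± 0.76, limma padj = 0.0547), with 3.68 approximate reads and 99.7% own stretches. Rpl31-ps20 was at 0 to 1.82 and at 2.38 to 2.53 FPKM (2.75 ± 0.97, limma padj = 0.0891), and Rpsa-ps9 at 0.0650 to 0.549 and at 0.633 to 2.16 FPKM (1.77 ± 0.52, limma padj = 0.0607). In CONTROL-TIA these 3 copies reached 2.96, 4.13 and 1.34 FPKM, within or above the OGD-VEH range.

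In the presence of TIA, OGD gave no call. In OGD-TIA versus CONTROL-TIA, limma called 0 of the 235 members and 0 of all genes (0.0%). The study used DESeq2, a test for read counts, at the same thresholds and did report differentially expressed genes in this comparison. It also reported more of them after OGD without TIA than limma called here. The absence of calls by limma on FPKM therefore does not mean that no gene changed. At an unadjusted limma p under 0.05, 30 members were higher and 10 lower, where 11.7 and 7.88% of all genes were. The groups did not overlap in 18 members that were higher and 4 that were lower, or 7.66 and 1.70%, beside 9.53 and 6.65% of all genes. The members' median log2 fold change was 0.17, and that of the ribosomal protein copies 0.23.

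The 8 members called without TIA had log2 fold changes of 0.84 (Cd63-ps), -0.17 (Ftl1-ps1), -0.79 (Txn-ps1), -0.30 (Cbx3-ps8), -0.33 (Fabp3-ps1), 0.16 (Ppp1r2-ps2), 2.26 (Atp6v0c-ps1) and 0.22 (Rpl12-ps1) in this comparison, none of which passed (limma padj between 0.149 and 0.965). Cd63-ps was at 14.3 to 15.7 FPKM in CONTROL-TIA and at 20.6, 32.4, 18.6 and 40.6 FPKM in OGD-TIA, without overlap, the highest being culture 16. Fabp3-ps1 was at 185 to 226 FPKM in CONTROL-TIA and at 193, 183, 230 and 86.5 FPKM in OGD-TIA, where only culture 16 was low. In the pair ratios, 6 pairs were higher (2.94%) and 4 lower (1.96%) without overlap, with Rps16-ps2 and Rpl31-ps15 among the lower ones. After adjustment over the 204 pairs, the smallest exact permutation p was 0.583.

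TIA without OGD gave no call either. In CONTROL-TIA versus CONTROL-VEH, limma called 0 members and 0 genes (0.0%), and at an unadjusted limma p under 0.05, 2 members were higher and 12 lower, where 1.83 and 2.05% of all genes were. The groups did not overlap in 0 members that were higher and 2 that were lower, beside 0.962 and 1.07% of all genes. Ratios did not overlap in 2 pairs that were higher (0.98%) and 3 lower (1.47%), with a smallest adjusted exact permutation p of 0.935. The lower ones were Rpl9-ps7, Chchd2-ps, with 11.5 approximate reads, and Rps15-ps2, which had 93.7 and lay between 28.2 and 40.2 FPKM in CONTROL-VEH and between 10.03 and 22.8 FPKM in CONTROL-TIA.

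In OGD-TIA versus OGD-VEH, limma again called 0 members and 0 genes (0.0%). At an unadjusted limma p under 0.05, 8 members were higher and 33 lower, where 2.95 and 4.98% of all genes were, and the groups did not overlap in 4 members that were higher and 13 that were lower, beside 1.32 and 2.46% of all genes. Of the 13, 7 were ribosomal protein copies. The median log2 difference was -0.24 over all 98 ribosomal protein copies and -0.28 over the 45 ribosomal protein parents. Without culture 16, 9 members were higher and 42 lower at that p, which is 21.7% of them, beside 18% of all genes. Ratios did not overlap in 6 pairs that were higher (2.94%) and 1 that was lower (0.49%). After Benjamini-Hochberg adjustment over the 204 pairs, the smallest exact permutation p was 0.729.

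The effect of OGD with TIA minus that without, tested as an interaction, gave 0 calls among members and among all genes (0.0%), with 6 members higher and 17 lower at an unadjusted limma p under 0.05, where 2.66 and 3.4% of all genes were. The members with the smallest interaction p were Atp6v0c-ps1 at 5.41, Rpl31-ps15 at -6.46 and Ftl1-ps1 at -1.26 on the log2 scale, each at a limma padj of 0.722. Atp6v0c-ps1 and Rpl31-ps15 average 2.94 and 2.19 approximate reads. Rpl31-ps15 was listed at 0 FPKM in all 4 OGD-TIA cultures and at 0.585 to 4.30 FPKM in CONTROL-TIA. Ftl1-ps1 was at 20.8, 19.4, 32.4 and 40.4 FPKM in OGD-TIA, below every OGD-VEH culture, and with Ftl2-ps added the reads ran from 367 to 949 in OGD-TIA and from 784 to 1765 in OGD-VEH.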

How the data were processed

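RNA of 16 primary neuron cultures was sequenced as 50-base single-end reads from TruSeq stranded mRNA libraries. The authors aligned the reads to GRCm38 with STAR, assigned them to isoforms with eXpress and the Ensembl release 92 annotation, and deposited FPKM values per isoform, TMM-scaled by the name of the deposited table. The submitters' notes also name FastQC and DESeq2, and the tool versions are not given in the sources used here. No read counts were analysed, so depth is known only through the approximate reads described above. Of 135276 table lines, 74 had no identifier and were left out, and 99.82% of the isoforms were in GENCODE M21, which gave lengths, positions and sequences. All 16 value columns were mapped to cultures.

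FPKM was summed per symbol. limma 3.58.1 (R 4.3.3, empirical Bayes with trend) was fitted to log2(FPKM + 0.1) over the 16313 genes that averaged 0.5 FPKM or more, for each comparison on the cultures of its 2 groups, and on all 16 for the interaction. Fits were tested on simulated, independent, normally distributed values with fixed changes beyond the calling threshold. These held no zeros and no shared reads, so that test says nothing about calls on members of few reads. Pseudogene to parent ratios and summed copies were compared with the two-sided exact permutation test over 70 assignments, which allows no p below 0.0286. Comparisons that share a group of cultures are not independent. Copies were aligned to parents with blastn 2.17.0. The p-values set a difference between groups against the variation between cultures. For these copies that variation also holds the sampling of few reads and the division of shared reads. Members and lists were chosen with earlier results of these data known. Named with values were all called members, the 10 of highest mean FPKM, the 10 largest changes between OGD-VEH and CONTROL-VEH without overlap, the 3 smallest interaction p-values, the 3 candidates on each side of the threshold, and their parents. Others are said to be named after their values were seen, and so are Ftl2-ps, Ppp1r2-ps4, Rps12-ps3, Rpl9-ps7, Rps15-ps2, Chchd2-ps and the 9 members of wide spread. Alternatives were no filter, other filters, other pseudocounts, median-ratio scaling, array quality weights, all cultures in 1 fit, length-weighted sums (for the ratios only), approximate reads, and leaving out each culture.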

Additional observations from a re-analysis of the deposited data

Results flagged for a closer look

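In 10 of 96 groups of 4 cultures looked at (24 named members in 4 groups), 1 culture lay far from the other 3 of its group. The criterion marks about 1 in 20 groups of independent, normally distributed values. Some of these groups hold values of 0, the members share cultures, and many were named for their large changes. The count can therefore not be set against that rate. Among the members called after OGD, these were Ppp1r2-ps2 at 6.92 FPKM in OGD-TIA culture 14, Atp6v0c-ps1 at 0.391 FPKM in OGD-VEH culture 9 and Rpl12-ps1 at 3.509 FPKM in CONTROL-TIA culture 8, each the highest of its group. Among the members of highest level, Rpl31-ps8 was low at 1895 FPKM in OGD-VEH culture 9, Tpt1-ps3 was high at 1595 FPKM in OGD-TIA culture 16, and Rps16-ps2 was high at 1355 FPKM in CONTROL-TIA culture 5. Rps15a-ps5 was high in a culture of each of 2 groups, at 580 FPKM in CONTROL-TIA culture 5 and at 600.6 FPKM in OGD-TIA culture 16. Anapc15-ps was low at 0.002 FPKM in OGD-TIA culture 13, and Rps12-ps4 was low at 0.856 FPKM in CONTROL-VEH culture 1. The causes were not tested.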

How the results depend on the processing

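In OGD-VEH versus CONTROL-VEH, limma called 8 of 235 members (3.4%, beside 3.96% of all genes), 0 with no filter on low values (6 of 53679 genes), 4 of the 155 left with a minimum mean of 2 FPKM (2.58%, beside 4.81%) and 20 with array quality weights (8.51%, beside 11.7%). Leaving out 1 culture gave 0 to 17 calls: 0 without any of CONTROL-VEH 1 to 4 or OGD-VEH 10 to 12, and 17 without OGD-VEH 9, where all genes went to 1 to 70 calls and to 2172. The count was 6 with a pseudocount of 1 or 0.01 (2.55%, beside 3.02 and 3.71% of all genes). It was 7 with median-ratio scaling (2.98%, beside 3.89%) and 9 with the filter on the cultures compared (3.91%, beside 4.09%). With all cultures in 1 fit it was 10 (4.26%, beside 8.52%). Approximate reads, an alternative chosen after seeing the data, gave 12 (5.11%, beside 7.04%). For OGD-TIA versus CONTROL-TIA, where 0 were called, a pseudocount of 0.01, array quality weights and approximate reads each gave 1 (0.426%). Over all genes these 3 settings gave 4 (0.0245%), 83 (0.509%) and 143 (0.877%) calls. Array quality weights also gave 4 for OGD-TIA versus OGD-VEH (1.7%, beside 2.27% of all genes) and 3 for the interaction (1.28%, beside 0.619%). None of these alternatives called a member for CONTROL-TIA versus CONTROL-VEH.

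Pairs whose ratios did not overlap numbered 13 for OGD without TIA and 16 to 27 with 1 culture left out. They numbered 10 for OGD with TIA (14 to 18 with 1 left out), 5 for TIA without OGD (7 to 13) and 7 for TIA after OGD (10 to 18), where 3 against 4 cultures are by construction less likely to overlap. Of 400 alternative values of single named members, 312 kept their direction and side of the threshold, 75 no longer passed it, 13 newly passed it and 0 changed sign. No paired analysis was possible because the cultures are numbered 1 to 16 and no number is shared between groups. Depth limits the members under 10 approximate reads most, 57 of 235. The causes of these dependences were not tested.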
